A study of Homo sapiens with 6 samples.

Results

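Aminoacyl-tRNA synthetases are the enzymes that join each amino acid to its transfer RNA. The genes described here are 35 named synthetase genes out of 62703 genes in the deposited tables. They were chosen by symbol and by no measured value, with 19 counted as cytosolic and 16, whose names end in 2, as mitochondrial. GARS1 and KARS1 stand with the cytosolic genes, although each also makes the enzyme used in mitochondria. Their mRNAs were measured by RNA sequencing in H929, a long-established human cell line from multiple myeloma, a tumour of plasma cells, which secrete antibodies. The cells are labelled as wild type. The treated group (3 libraries) received 1 µM Mi-2, an inhibitor of the protease MALT1, for 24 h, and the control group (3 libraries) received the solvent DMSO for the same time. The data come from 1 cell line, 1 dose and 1 time, and the labels give no shared day or culture for the libraries. Every library's title ends in "bio rep 1" after its own number, and what that ending means for how the 3 libraries of a group relate is not given.

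A cell needs a separate set of synthetases for each of its translation systems, and both sets are encoded in the nucleus. The cytosolic enzymes feed the ribosomes that make most proteins, which in plasma cells include large amounts of immunoglobulin. Several of them sit in a multi-synthetase complex held together by the scaffold proteins AIMP1, AIMP2 and EEF1E1. The mitochondrial enzymes charge the tRNAs that read the few mRNAs of the mitochondrial genome, all of which encode subunits of the respiratory chain and ATP synthase. When amino acids run short or the endoplasmic reticulum is stressed, the transcription factor ATF4 raises many cytosolic synthetase genes, often through a composite element that it binds together with a C/EBP protein.

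Stretches of promoter are printed to show the motifs that were searched for in these genes. RefSeq promoters (GRCh38.p14, 250 bases before to 50 bases after each start) were found for 30 of the 35 genes, 16 cytosolic and 14 mitochondrial. Both strands were searched for TGATGCAA, a common form of the composite element of ATF4 and C/EBP, whose other strand reads TTGCATCA. It was found in 6 of the 16 cytosolic genes, in 0 of the 14 mitochondrial ones and in 1.08% of all 27305 genes with promoters of the same length. A gene with several promoters counts once, if any of them holds the motif, here and in the counts and shares of promoters below. The 6 stretches are written on the strand of the gene, with the element in capitals.
TARS1: cgcctttcgaTTGCATCAgctggtccag
IARS1: tttcagcgcgTTGCATCAcctccgtgcg
CARS1: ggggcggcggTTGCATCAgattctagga
MARS1: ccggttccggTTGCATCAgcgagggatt
AARS1: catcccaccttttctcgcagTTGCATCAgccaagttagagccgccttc
NARS1: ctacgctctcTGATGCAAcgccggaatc

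The element lay at or beside the start in most of these genes. Its first base stood 13 bases before the start in IARS1 (chr9:92293693-92293720, minus strand), 2 before it in CARS1 (chr11:3057408-3057435, minus strand) and 4 before it in MARS1 (chr12:57488054-57488081, plus strand). In TARS1 (chr5:33440957-33440984, plus strand) it began at base 3 and in NARS1 (chr18:57621805-57621832, minus strand) at base 15 of the transcript. TARS1 has another RefSeq promoter, at chr5:33440446-33440745, which does not hold the element. AARS1 (chr16:70289666-70289713, minus strand) had it farther out, 187 bases before the start. With any base allowed at its position 6 (TGATGNAA, which includes the form above), the element was in 7 cytosolic promoters, with GARS1 added, in 1 mitochondrial promoter, that of YARS2, and in 4.46% of all promoters.

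MARS2, the gene of the mitochondrial methionine enzyme, was the only synthetase gene called changed in the main test, by edgeR without a block. The palindrome bound by NRF1, a factor known for driving nuclear genes of mitochondrial proteins, was in the MARS2 promoter and no other mitochondrial one, in 0 of the 16 cytosolic promoters and in 1.52% of all promoters. The 250 bases before the MARS2 start (chr2:197705119-197705368, plus strand) are given with this motif, in the form searched for, in capitals. Its first base stands 27 bases before the start.
MARS2: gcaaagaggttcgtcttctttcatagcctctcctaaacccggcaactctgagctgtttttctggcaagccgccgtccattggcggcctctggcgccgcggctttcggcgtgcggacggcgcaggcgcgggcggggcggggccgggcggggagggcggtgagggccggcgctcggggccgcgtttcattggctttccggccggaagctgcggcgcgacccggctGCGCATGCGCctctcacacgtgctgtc

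Among the other motifs searched, the ETS site CCGGAAGT was in 5 cytosolic (CARS1, HARS1, NARS1, TARS1, WARS1) and 3 mitochondrial promoters (EARS2, HARS2, PARS2), against 4.95% of all promoters. In TARS1 it lay in the promoter without TGATGCAA. HARS1 and HARS2, the genes of the cytosolic and mitochondrial histidine enzymes, are read away from each other, with 84 bases between their starts. The ETS sites of both lie in this shared stretch and are the same sites, counted once in each class. The E-box CACGTG was in IARS1 and in CARS2, EARS2 and MARS2, against 8.77% of all promoters. The CREB site TGACGTCA was in none of the 30, against 2.25%. These matches describe letters in a window and not binding.

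The 6 libraries held 19980700 to 23756700 estimated counts each. All 8 plasma cell markers passed the filter on low counts, among them JCHAIN, XBP1 and TNFRSF17, and the myeloid markers did not (0 of 8). Of the T and NK cell markers only CD3E was tested, with CD3D and CD8A at 0 in every library. CD3E rose (log2 fold change 0.50, edgeR adjusted p = 0.0180, but 0.0783 without DMSO library 2), and the summed TPM of that list was 29.3 to 34.2 in DMSO and 42.5 to 47.7 in Mi-2. Of the stromal and epithelial markers 3 of 10 were tested, with COL1A2 and CDH5 at 0 in every library. KRT18 and PECAM1 of this list rose, PECAM1 only with all 6 libraries, and its summed TPM was 69.7 to 88.3 in DMSO and 88.2 to 125 in Mi-2. The part of these genes in the synthetase values was not tested.

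In TPM, a unit corrected for gene length, the cytosolic genes were expressed at much higher levels than the mitochondrial genes. The mean TPM over all 6 libraries had a median of 152 over the 19 cytosolic genes and of 14.8 over the 16 mitochondrial genes. The cytosolic genes ran from FARSB (25.1 TPM), for the beta subunit of the phenylalanine enzyme, and CARS1 (64.9 TPM), for the cysteine enzyme, up to WARS1 (276 TPM) and MARS1 (308 TPM), for the tryptophan and methionine enzymes. The mitochondrial genes ran from WARS2 (2.66 TPM) and PARS2 (4.36 TPM), for the tryptophan and proline enzymes, up to IARS2 (33.0 TPM) and TARS2 (70.6 TPM), for isoleucine and threonine. Of the 19 cytosolic genes, 16 stood above TARS2.

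The leading TPM value was not steady between libraries. In the order of library number, MARS1 had 257, 488 and 258 TPM under DMSO, and 261, 247 and 335 TPM under Mi-2. In CPM (counts relative to the size of each library, with library sizes scaled by TMM) the same gene had 301, 310.5 and 309.9 in DMSO and 290.1, 306 and 295 in Mi-2. The high TPM of DMSO library 2 thus had no counterpart in CPM, and fold changes between treatments are given from the counts. Class sums and ratios of paired genes are given in TPM.

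No cytosolic synthetase gene was called higher or lower after Mi-2 in the main test, which did not pair libraries by number. In edgeR's quasi-likelihood test with Benjamini-Hochberg adjustment over 16082 genes, 0 of the 19 passed an adjusted p of 0.05, against 11.0% of all tested genes, 5.02% higher and 6.03% lower. With the library number as a block, 1 was called higher (WARS1) and 4 lower (FARSA, FARSB, KARS1, NARS1), beside 1791 and 2035 of all 16082 genes. Of the 19 log2 fold changes 15 were negative and 4 positive, with a median of -0.11 and a range of -0.28 to 0.20. Over all tested genes the median was 0.00496 and 49.3% were negative. At an unadjusted p under 0.05, 4 cytosolic genes were lower (FARSA, FARSB, HARS1, KARS1) and 0 higher, against 14.1% and 12.9% of all genes, and DESeq2 called 1 gene, FARSB, lower, beside 7.97% of all genes. In bulk RNA, fewer cells of a type and less RNA per cell cannot be told apart, and all values are relative to the total of each library.

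The intervals of the cytosolic genes were narrow. The 95% interval of every one of the 19 log2 fold changes lay within a 1.5-fold change in either direction. The lowest bound was -0.48, for FARSB, a 1.39-fold decrease, and the highest was 0.43, for WARS1, a 1.35-fold increase.

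**Figure D1:**
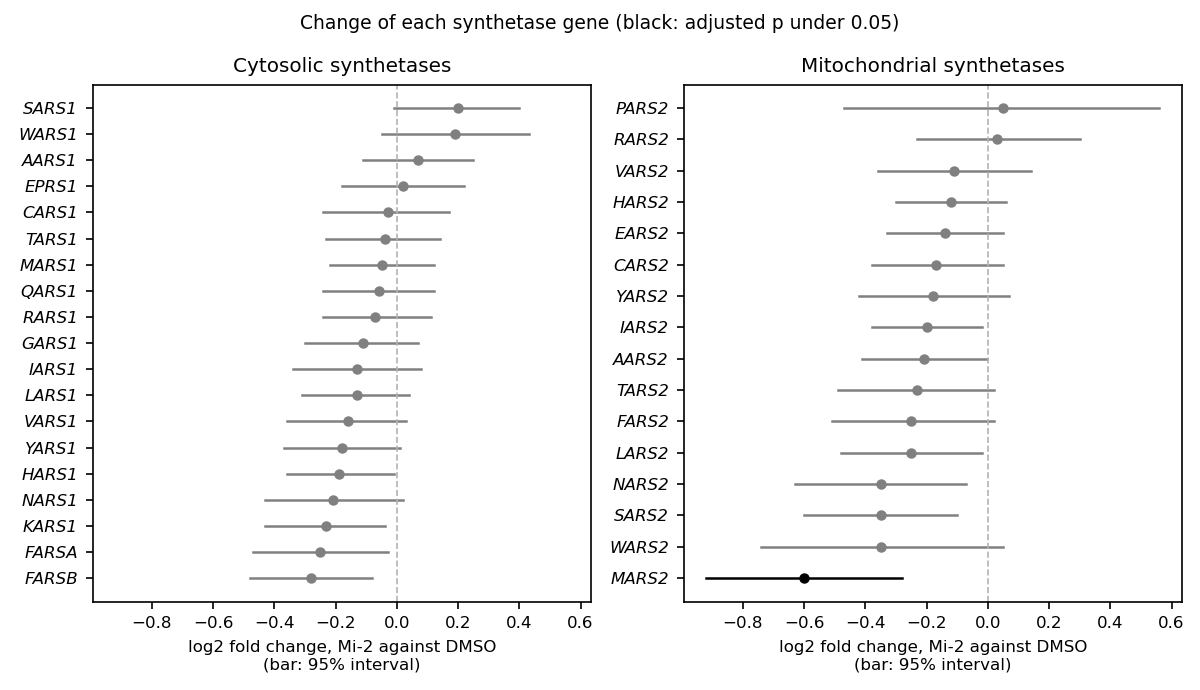
Log2 fold change of Mi-2 against DMSO for each synthetase gene, with its 95% interval (x axis, log2 units), cytosolic genes on the left and mitochondrial genes on the right, each ordered by value. MARS2 alone is drawn in black, for an adjusted p under 0.05, and 15 of 19 cytosolic and 14 of 16 mitochondrial points lie below 0.

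The lowest cytosolic values belonged to both subunits of the phenylalanine enzyme and to the lysine enzyme. FARSB, its beta subunit, had 155, 156 and 155 CPM under DMSO and 125, 142 and 117 CPM under Mi-2. The DMSO libraries were nearly equal and all lay above the 3 Mi-2 libraries. The log2 fold change was -0.28 ± 0.09 (SE, n = 3 per group), with an edgeR adjusted p of 0.0789. FARSA, its alpha subunit, had 358, 407 and 379.8 CPM in DMSO and 285, 344 and 334 in Mi-2, again without overlap. Its log2 fold change was -0.25 ± 0.10 (SE, edgeR adjusted p = 0.137). KARS1, whose enzyme charges lysine in the cytosol and in mitochondria, had 178, 188 and 183 CPM in DMSO and 143, 168 and 155 in Mi-2. The groups did not overlap, with a log2 fold change of -0.23 ± 0.09 (SE, edgeR adjusted p = 0.117). GARS1, the other gene that serves both compartments, had a log2 fold change of -0.11 ± 0.08 (SE, edgeR adjusted p = 0.403).

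The highest cytosolic values were those of the serine, tryptophan and alanine enzymes. SARS1 had 161, 175 and 178 CPM in DMSO and 184, 216 and 189 in Mi-2. It was the only synthetase gene of either class with all Mi-2 libraries above all DMSO libraries, and its log2 fold change was 0.20 ± 0.09 (SE, edgeR adjusted p = 0.204). WARS1 had 286, 324 and 276 CPM in DMSO and 329, 379.9 and 301 in Mi-2, with a log2 fold change of 0.19 ± 0.11 (SE, edgeR adjusted p = 0.296). The 2 groups overlapped, with Mi-2 library 3 below DMSO library 2. AARS1 overlapped too, at 389, 373 and 404 CPM in DMSO and 403, 405 and 414 in Mi-2 (log2 fold change 0.07 ± 0.08, SE). MARS1 and CARS1 had log2 fold changes of -0.05 ± 0.08 and -0.03 ± 0.09 (SE). The other cytosolic genes lay between NARS1, at -0.21 ± 0.10, and EPRS1, whose enzyme charges both glutamate and proline, at 0.02 ± 0.09 (SE).

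Counted by separate ranges, 9 of the 19 cytosolic genes had every Mi-2 library below every DMSO library, beside 16.6% of all tested genes. They were FARSB, FARSA, KARS1, NARS1, HARS1, YARS1, VARS1, LARS1 and GARS1. SARS1 alone had the opposite order, beside 15.7% of all genes. These genes share libraries, so that their ranges are not independent of each other.

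No subgroup of the cytosolic enzymes held a gene called in edgeR without a block. FARSB, which DESeq2 called, is outside the complex and not in the ATF4 list. The 7 enzymes of the multi-synthetase complex had a median log2 fold change of -0.07 and a range of -0.23 to 0.02, and the 12 enzymes outside it a median of -0.14. The 13 genes listed as responsive to ATF4 had a median of -0.05 and 0 with an unadjusted p under 0.05. Over all genes 14.1% were lower and 12.9% higher at that p. The other 6 cytosolic genes, which include both phenylalanine subunits and those of the histidine and lysine enzymes, had a median of -0.21. All 6 values were negative, and 4 were lower at an unadjusted p under 0.05. The difference between these 2 groups was not tested. Among the genes with a promoter in the table, the 6 with TGATGCAA had log2 fold changes of -0.21 to 0.07 (median -0.05) and the 10 without it -0.28 to 0.20 (median -0.09).

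**Figure D2:**
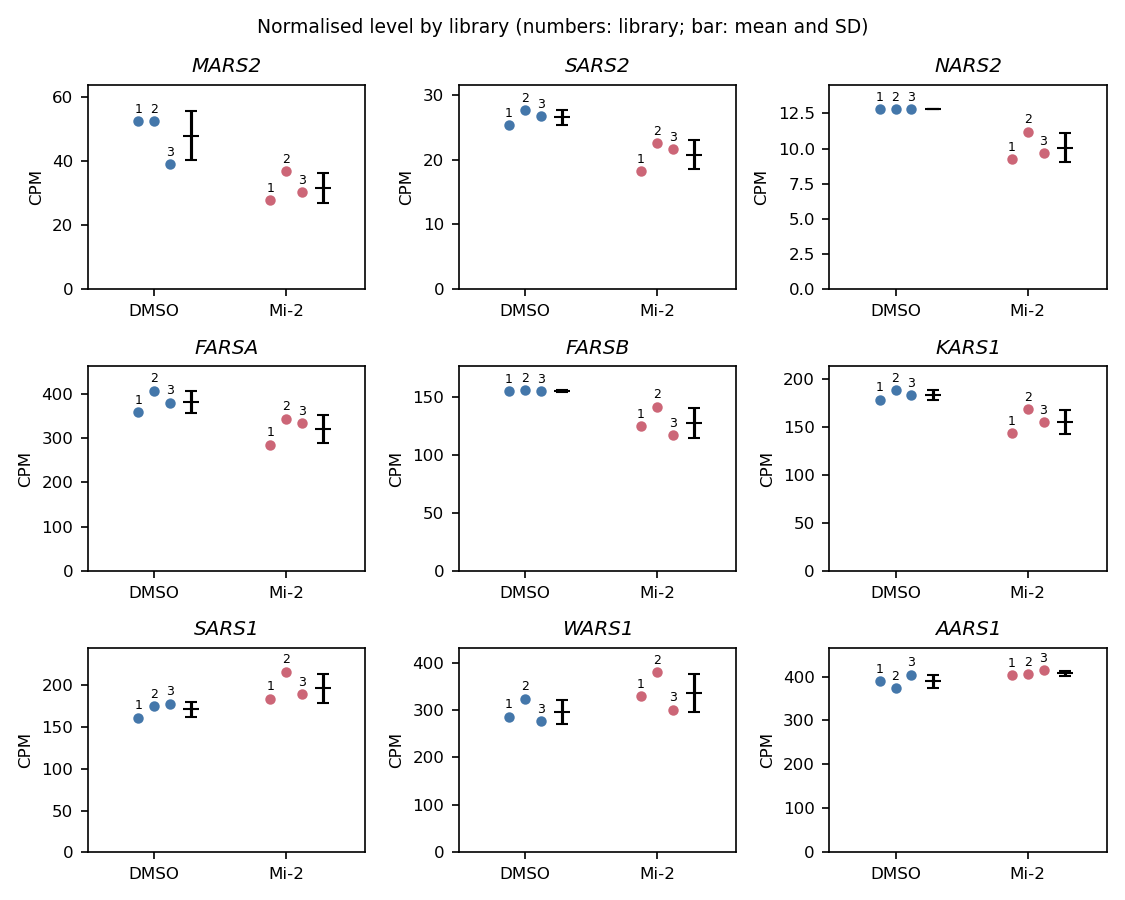
CPM (y axis, from 0) of 9 synthetase genes in each numbered library, with DMSO libraries in blue and Mi-2 libraries in red, and the mean and SD of 3 as a black bar. MARS2, SARS2, NARS2, FARSA, FARSB and KARS1 show every Mi-2 library below every DMSO library, SARS1 the opposite, and WARS1 and AARS1 overlap.

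Of the 16 mitochondrial synthetase genes, MARS2 fell and none rose in the main test. A single called gene of 16 is a share close to the 6.03% of all genes that were called lower. With the library number as a block, 4 were called lower (LARS2, MARS2, SARS2, TARS2), beside 2035 of all 16082 genes. Of the 16 log2 fold changes 14 were negative, with a median of -0.21 and a range of -0.60 to 0.05. At an unadjusted p under 0.05, 6 genes were lower (MARS2, SARS2, NARS2, IARS2, LARS2, AARS2) and 0 higher, beside 14.1% and 12.9% of all genes. In 12 of the 16, every Mi-2 library lay below every DMSO library, beside 16.6% of all genes, and none had the opposite order. The exceptions were PARS2, RARS2, VARS2 and TARS2, whose ranges overlapped.

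MARS2 (ENSG00000247626, chr2:197705369-197708387, plus strand, GRCh38) is annotated in GENCODE 29 with 1 exon. Its levels, by library number, were 52.3, 52.3 and 39.0 CPM under DMSO and 27.7, 36.9 and 30.2 CPM under Mi-2. The DMSO mean was 47.8 ± 7.69 and the Mi-2 mean 31.6 ± 4.80 (SD, n = 3 each), and the nearest libraries, DMSO 3 and Mi-2 2, were close together. The log2 fold change was -0.60 ± 0.14 (SE), a 1.51-fold decrease, with a 95% interval of -0.92 to -0.28 and an edgeR adjusted p of 0.0287. MARS2 lost its call without DMSO library 1 or 2 or Mi-2 library 1 or 3 (adjusted p 0.0704 to 0.113) and in limma on log2(TPM + 1) (adjusted p = 0.110), which called 2.73% of all genes lower. The direction was the same in all of these fits.

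Next in order came the serine, asparagine and tryptophan enzymes of mitochondria, none of which passed the main test. SARS2 had 25.3, 27.6 and 26.7 CPM in DMSO and 18.2, 22.5 and 21.6 in Mi-2, so that all Mi-2 libraries were lower. Its log2 fold change was -0.35 ± 0.11 (SE, edgeR adjusted p = 0.0742). NARS2 had 12.8 CPM in each of the 3 DMSO libraries and 9.26, 11.2 and 9.69 in Mi-2 (log2 fold change -0.35 ± 0.13, SE, edgeR adjusted p = 0.109). WARS2, at 5.97, 5.70 and 5.99 CPM in DMSO and 3.86, 4.61 and 5.41 in Mi-2, also had separate ranges (log2 fold change -0.35 ± 0.18, SE, edgeR adjusted p = 0.248). It was the synthetase with the fewest counts, 85 in its lowest library, and its 95% interval was -0.74 to 0.05.

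The most abundant mitochondrial synthetases, IARS2 and TARS2, were not called in the main test either. IARS2, for isoleucine, had 95, 101 and 102 CPM in DMSO and 89.2, 88.3 and 81.4 in Mi-2, with a log2 fold change of -0.20 ± 0.08 (SE, edgeR adjusted p = 0.133). TARS2, for threonine, had 121, 124 and 155 CPM in DMSO and 103, 114 and 123 in Mi-2, so that Mi-2 library 3 lay within the DMSO range (log2 fold change -0.23 ± 0.11, SE). The genes of the leucine, phenylalanine, alanine, tyrosine, cysteine, glutamate and histidine enzymes ran from LARS2 at -0.25 ± 0.10 to HARS2 at -0.12 ± 0.08 (SE), all with separate ranges. EARS2, for glutamate, at -0.14 ± 0.08 (SE), turned to 0.01 in limma on log2(TPM + 1).

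At the upper end stood the proline, arginine and valine enzymes. PARS2 had the widest spread, at 5.22, 8.58 and 9.73 CPM in DMSO and 6.67, 9.31 and 8.39 in Mi-2. Its log2 fold change of 0.05 ± 0.23 (SE) turned to -0.17 without DMSO library 1, where it was lowest. RARS2 had 30.4, 26.3 and 24.0 CPM in DMSO and 30.3, 26.6 and 25.7 in Mi-2, a log2 fold change of 0.03 ± 0.12 (SE) whose sign also turned with single libraries. VARS2 had 29, 26.8 and 30.9 CPM in DMSO and 28, 23.6 and 28.7 in Mi-2 (log2 fold change -0.11 ± 0.11, SE). All 16 mitochondrial intervals lay within a 2-fold change, and 12 within 1.5-fold.

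Summed over genes, the mitochondrial class separated the treatments and the cytosolic class did not. The summed TPM of the 16 mitochondrial genes was 331, 342 and 335 under DMSO and 283, 294 and 282 under Mi-2, or 336 ± 5.70 against 286 ± 6.67 (SD, n = 3 each). The summed TPM of the 19 cytosolic genes was 3104, 3447 and 2996 in DMSO and 2981, 3096 and 2849.8 in Mi-2, or 3182 ± 236 against 2976 ± 123, and these ranges overlapped. The most abundant genes of each class weigh most in such sums, and in the cytosolic sum of DMSO library 2 MARS1 alone gave 488 TPM. The mean log2 CPM of each class, in which every gene counts equally, was 8.07, 8.09 and 8.09 in DMSO and 7.96, 8.07 and 7.95 in Mi-2 for the cytosolic genes. For the mitochondrial genes it was 4.83, 4.89 and 4.91 in DMSO and 4.59, 4.72 and 4.68 in Mi-2. No test was made of these sums and means, or of the difference between the classes, because the genes are not replicates of a class.

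**Figure D3:**
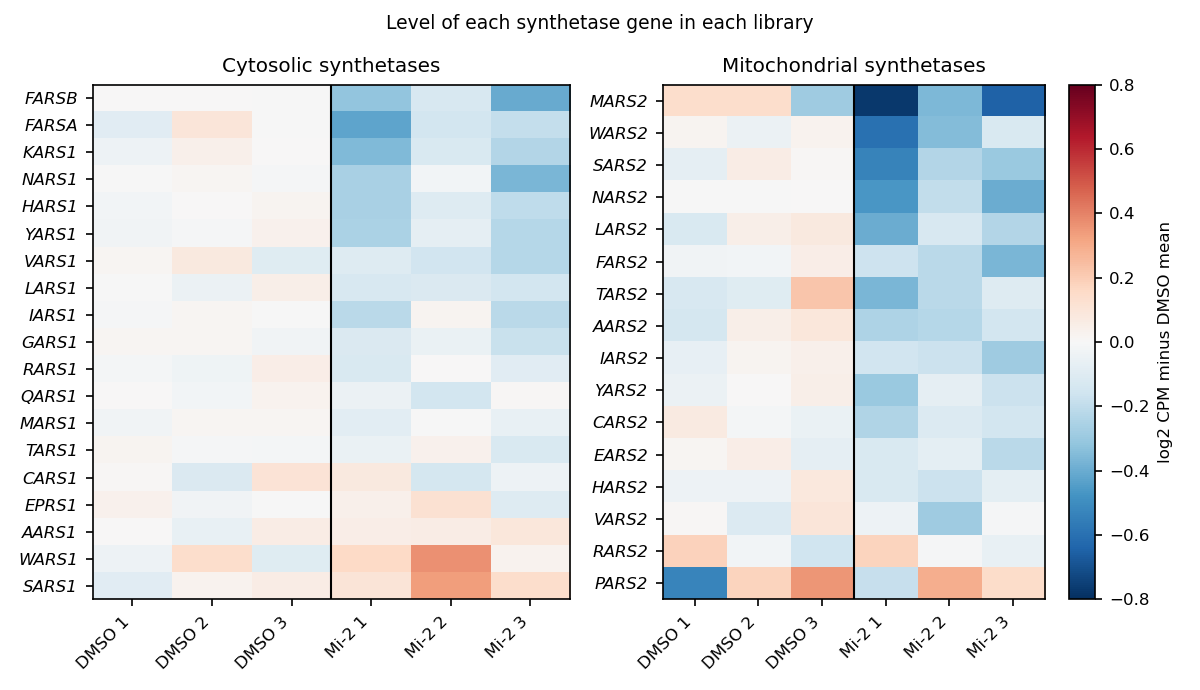
Log2 CPM of each synthetase gene in each library minus the gene's DMSO mean (color, log2 units), genes in rows ordered by fold change, DMSO libraries left and Mi-2 libraries right of the black line. Mi-2 libraries 1 and 3 are bluer than Mi-2 library 2 in most cytosolic rows, and MARS2 and PARS2 have the largest spread.

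The Mi-2 libraries did not agree equally with each other. Mi-2 library 2 was the highest of the Mi-2 libraries for 15 of the 19 cytosolic genes (78.9%) and for 8 of the 16 mitochondrial genes (50%), beside 33.3% of all tested genes. For IARS1, for isoleucine, it even reached the DMSO range, with 439.9, 519 and 439.6 CPM under Mi-2 against 506, 516 and 509 in DMSO. NARS1, for asparagine, had 395, 466 and 368 CPM in Mi-2 against 471, 478 and 470.1 in DMSO. With this library left out, FARSB was called lower (log2 fold change -0.36, edgeR adjusted p = 0.0426), while 4.49% of all genes were called lower. The class medians were then -0.14 for the cytosolic and -0.23 for the mitochondrial genes. With any other single library left out FARSB was not called (edgeR adjusted p up to 0.232).

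Both classes charge 16 of the amino acids, which gave 17 pairs of a cytosolic and a mitochondrial gene, since EPRS1 and FARS2 stand in 2 pairs each. The cytosolic gene had the higher TPM in every pair. In DMSO the ratio of TPM ran from 2.30 for cysteine (CARS1 to CARS2) to 83.5 ± 10.1 (SD, n = 3) for tryptophan (WARS1 to WARS2), with a median of 8.68. The ratios pair 2 genes of the same library, and a high or low value of either gene moves them.

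The mitochondrial gene had the lower log2 fold change in 10 of the 17 pairs, with a median difference of 0.12. The pairs that differed most were those of methionine and serine, by 0.55 each, and tryptophan, by 0.54. The tryptophan ratio was 89.8, 88.8 and 71.9 in DMSO and 154, 149 and 102 in Mi-2, without overlap. The serine ratio was 3.79, 5.68 and 5.66 in DMSO and 8.23, 7.80 and 7.05 in Mi-2, also without overlap. Its low value in DMSO library 1 holds an unsteady TPM of SARS2. In DMSO that gene had 33.1, 24.2 and 22.6 TPM but 25.3, 27.6 and 26.7 CPM. The methionine ratio overlapped, at 11.7, 21.7 and 16.9 in DMSO and 22.4, 16.2 and 27.3 in Mi-2, with the unsteady TPM of MARS1 in it. None of these differences between paired genes was tested.

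**Figure D4:**
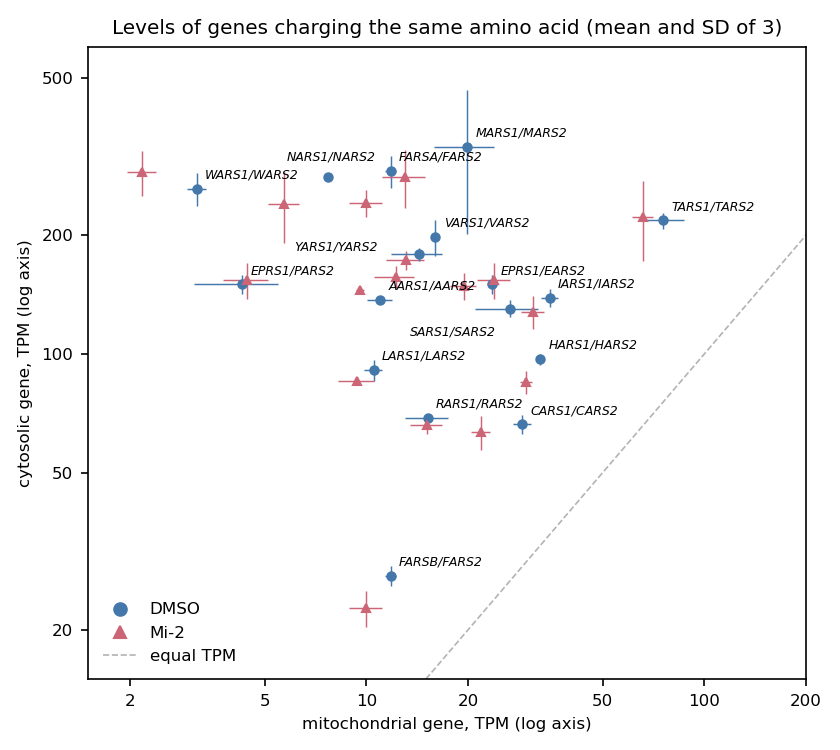
Mean TPM of each mitochondrial gene (x axis, log scale) and of the cytosolic gene for the same amino acid (y axis, log scale), with SD of 3 libraries as bars, DMSO as circles and Mi-2 as triangles. All 17 pairs lie above the dashed line of equal TPM, from CARS1/CARS2 nearest to it to WARS1/WARS2 farthest.

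The 3 scaffolds of the multi-synthetase complex had a median log2 fold change of -0.38. None was called in the main test, and 2 (AIMP2, EEF1E1) were lower at an unadjusted p under 0.05, beside 14.1% of all genes. AIMP1 had a log2 fold change of -0.18 ± 0.08 (SE, edgeR adjusted p = 0.193) and AIMP2 of -0.38 ± 0.15 (SE, edgeR adjusted p = 0.126). EEF1E1 had 41.2, 41.8 and 44.6 CPM in DMSO and 27.0, 38.2 and 29 in Mi-2, a log2 fold change of -0.44 ± 0.13 (SE, edgeR adjusted p = 0.0576). In all 3 the Mi-2 libraries lay below the DMSO libraries, and Mi-2 library 2 was again the nearest to DMSO. Without that library AIMP2 and EEF1E1 were called lower (adjusted p 0.0490 and 0.0216), and DESeq2 called EEF1E1 with all libraries (adjusted p = 0.0205). With any other single library left out neither gene was called (edgeR adjusted p up to 0.339 for AIMP2 and 0.204 for EEF1E1).

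The other steps around tRNA charging were read from lists of partner genes, 57 genes in the 6 lists between scaffolds and mitochondrial translation factors in the plot by list. Of these, 9 fell and none rose, and 47 had a negative log2 fold change, beside 6.03% of all genes called lower. Genes on the 3 mitochondrial lists made up 36 of the 57 and 8 of the 9 called genes. A place on these lists does not mean a role in mitochondria alone. The 6 cytosolic elongation factors had 0 called genes in edgeR, 0 with an unadjusted p under 0.05, and a median of 0.01. Over all genes 14.1% were lower and 12.9% higher at that p. Of the 14 genes of tRNA export and end maturation only POP1, a subunit of the RNase P and RNase MRP enzymes that trim tRNA and rRNA precursors, fell (log2 fold change -0.39 ± 0.10, SE, edgeR adjusted p = 0.0323). XPOT, which carries tRNA out of the nucleus, had a log2 fold change of 0.04 ± 0.09 (SE, edgeR adjusted p = 0.834).

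Among the 19 genes that cut and modify mitochondrial tRNA, 4 fell, none rose and 17 values were negative, with a median of -0.24, beside 6.03% called lower, 5.02% called higher and 49.3% negative among all genes. GTPBP3, which modifies the wobble base of several mitochondrial tRNAs, had 44.3, 51.1 and 50.7 CPM in DMSO and 31.4, 30.5 and 37.4 in Mi-2, with every Mi-2 library lower. Its log2 fold change was -0.56 ± 0.11 (SE, edgeR adjusted p = 0.0127), and it lost the call without DMSO library 2 or Mi-2 library 1 (at most 0.0596). YRDC, which takes part in the threonylcarbamoyl modification next to the anticodon, had a log2 fold change of -0.58 ± 0.13 (SE, edgeR adjusted p = 0.0199). It lost its call without DMSO library 1 or 2 or Mi-2 library 1. TRMT10C, a subunit of the mitochondrial RNase P, had a log2 fold change of -0.47 ± 0.13 (SE, edgeR adjusted p = 0.0422), and CDK5RAP1, which adds a methylthio group to some mitochondrial tRNAs, of -0.28 ± 0.08 (SE, edgeR adjusted p = 0.0496). MTO1, the partner enzyme of GTPBP3, was not called (log2 fold change -0.20, edgeR adjusted p = 0.106).

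Glutaminyl-tRNA in mitochondria is made by amidation, and the initiator methionyl-tRNA, the product of MARS2, is formylated by MTFMT. Of the 4 genes of these steps 0 were called and 0 had an unadjusted p under 0.05, with a median of -0.11. Over all genes 14.1% were lower and 12.9% higher at that p. Of the 13 mitochondrial translation factors 4 fell and none rose, with a median of -0.16, beside 6.03% of all genes called lower and 5.02% called higher. TUFM, the elongation factor that carries charged tRNA to the mitochondrial ribosome, had 285, 312 and 312 CPM in DMSO and 230.0, 254 and 251 in Mi-2. Its log2 fold change was -0.31 ± 0.09 (SE, edgeR adjusted p = 0.0472), and that of TSFM, its exchange factor, -0.32 ± 0.08 (SE, edgeR adjusted p = 0.0392). GFM1, the translocation factor, had -0.37 ± 0.10 (SE, edgeR adjusted p = 0.0430) and GUF1, a related GTPase, -0.32 ± 0.08 (SE, edgeR adjusted p = 0.0377).

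These calls stood near the threshold. CDK5RAP1, TUFM, TSFM and GUF1 lost theirs with any 1 of the 6 libraries left out (adjusted p up to 0.174), and POP1, TRMT10C and GFM1 kept theirs only without Mi-2 library 2. CDK5RAP1 and TUFM were also not called under upper-quartile scaling (adjusted p 0.0608 and 0.0583). In limma on log2(TPM + 1), which called 2.73% of all genes lower, only GTPBP3 of the 9 called partner genes kept its call (adjusted p = 0.0413). The others had adjusted p of 0.0637 (YRDC) to 0.441 (CDK5RAP1) in that fit. Of the 13 mRNAs encoded in mitochondria themselves, the templates for this machinery, all 13 had positive log2 fold changes from counts (median 0.13). Of these 0 were called and 0 had an unadjusted p under 0.05, beside 5.02% and 12.9% of all genes higher. In TPM, MT-ND4L was lower instead, at 20776, 19300.2 and 18753 in DMSO and 16848, 17118 and 17979 in Mi-2. The mean TPM of MT-ATP8 was also lower (33117 in DMSO, 31114 in Mi-2), and every other mean of the list was higher. The 13 mRNAs took 4.23 to 4.66% of counts in DMSO and 4.86 to 5.05% in Mi-2, and the part of this share in the other values was not tested.

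**Figure D5:**
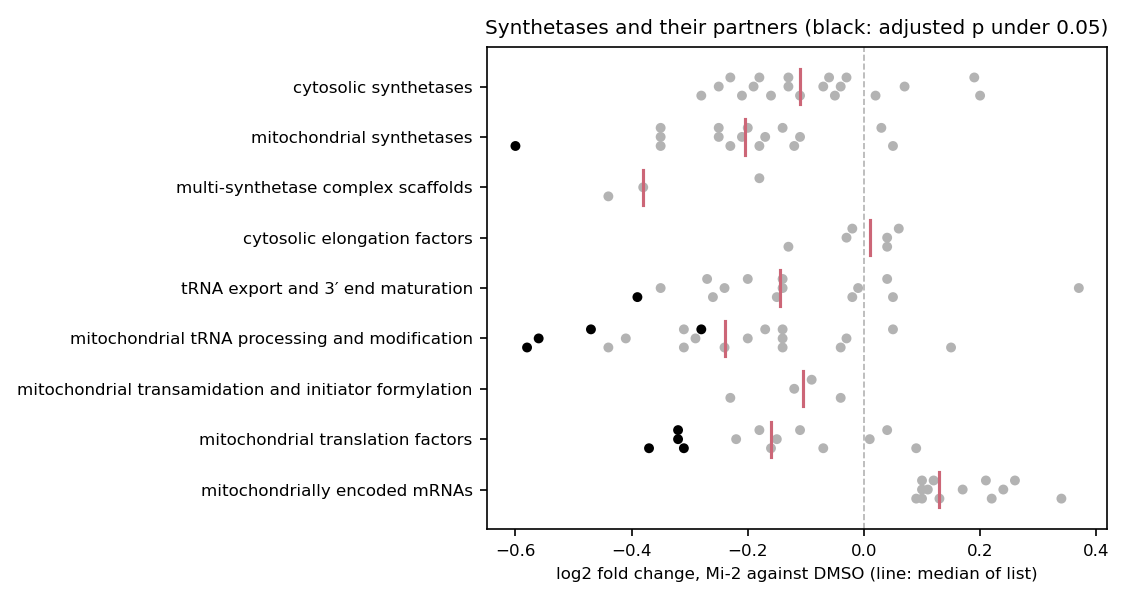
Log2 fold change of Mi-2 against DMSO (x axis, log2 units) for each tested gene of 9 lists (rows), with the median of each list as a red line and genes with an adjusted p under 0.05 in black. MARS2, POP1 and 8 genes of mitochondrial tRNA processing and translation are black, all left of 0, and the 13 mitochondrially encoded mRNAs lie right of 0.

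Genes of the amino acid response of ATF4 were read beside the cytosolic synthetases because they are known to share its control. Of 26 listed genes 25 were tested, 1 rose (DDIT3), none fell and the median log2 fold change was -0.03. That is a share near the 5.02% of all genes called higher. DDIT3, a stress transcription factor, had 4.97, 4.42 and 5.26 CPM in DMSO and 16.7, 8.75 and 10.5 in Mi-2, with every Mi-2 library higher. Its log2 fold change was 1.29 ± 0.24 (SE, edgeR adjusted p = 0.0106), and it kept the call with each library left out in turn. ATF4 itself had a log2 fold change of 0.21 ± 0.11 (SE, edgeR adjusted p = 0.250). ASNS, asparagine synthetase, had 0.11 ± 0.09 (SE, edgeR adjusted p = 0.495). WARS1 is known to respond to interferon-gamma. IRF1, a transcription factor of that response, fell by 0.34 on the log2 scale (SE 0.08, edgeR adjusted p = 0.0241), a call lost in 5 of the 6 fits with a library left out.

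Several synthetase genes share exon bases with a neighbour, and whether counting used strand is not given in the sources used here, so reads of such genes may be hard to tell apart. In GENCODE 29, 19 of the 35 overlap an exon of another gene, and for 12 of them that gene was tested and lies on the opposite strand. MARS1 shares 355 bases with DDIT3, which rose, and 519 bases with ARHGAP9, which also rose (log2 fold change 0.70, edgeR adjusted p = 0.0325). HARS1 and HARS2 share 437 bases. SARS2 shares 349 bases with MRPS12, a mitochondrial ribosomal protein gene with a log2 fold change of -0.25 (edgeR adjusted p = 0.11), and VARS2 shares 1858 bases on the same strand with GTF2H4.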

How the data were processed

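Paired-end libraries were made from total RNA extracted with TRIzol and sequenced on a NovaSeq, per the labels' protocols. Tools named by the submitters' processing notes, without roles, are RSEM 1.3.3, StringTie 2.1.0, HISAT2 2.1.0 and fastp 0.19.5, with the build GRCh38.p13. Estimated counts for each gene were deposited by the authors, not scaled between libraries (12.8% of values are fractional). A table of TPM values, corrected for gene length, was also deposited by the authors. Reads shared by similar genes are divided among them in estimated counts.

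Symbols came from a table of IDs and symbols for 62625 of the 62703 IDs. Estimated counts were rounded and filtered with filterByExpr (minimum count 10, minimum total 15), which kept 16082 genes and all 35 synthetases. Mi-2 was compared with DMSO in edgeR 4.0.16 under R 4.3.3 (quasi-likelihood test, TMM scaling), all 6 libraries, no covariate and Benjamini-Hochberg adjustment (threshold 0.05). Standard errors are the fold change divided by the square root of F. Nothing states that the libraries come from separate cultures, so p-values reflect only how these libraries differ, which may be technical. No library copied another (chi-square per degree of freedom 16.3 to 23.5 within groups). The depth of 19980700 to 23756700 counts and a biological coefficient of variation of 14.2% limit what can be detected.

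Given in full were called synthetases, the 3 highest and 3 lowest by fold change and the 2 highest and 2 lowest by TPM in each class, up to 4 called genes per other list and direction, and 9 genes named whatever their values, of which 1 is not reported here. GARS1, NARS1, IARS1, MTO1 and ARHGAP9 were added after their values were seen. The genes and lists were chosen with earlier results of these data known. Alternatives tried were DESeq2 1.42.0, limma-voom (limma 3.58.1), upper-quartile and RLE scaling, other filters on low counts, limma on log2(TPM + 1) or log2(TPM + 0.1), a block for the library number, and leaving out single libraries. Scripts were tested on simulated data. Coordinates are those of GENCODE 29 and RefSeq (GRCh38).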

Additional observations from a re-analysis of the deposited data

How the results depend on the processing

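Each of the 35 synthetase fold changes was recomputed under 16 alternatives, giving 560 values. Direction and side of the threshold held in 527. The MARS2 call was lost in 7, calls were gained in 10, and 6 genes changed sign in 16. Class medians kept their sign in all 16 alternatives. Upper-quartile scaling moved the median of all genes by 0.03, and neither it nor RLE turned the sign of a synthetase.

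In the limma fits on log2(TPM + 1), log2(TPM + 0.1) and log2(TPM + 1) with no TPM filter, TARS1 was at 0.01 (-0.04 in the main test), EARS2 at 0.01 (-0.14 in the main test) and RARS2 (0.03 in the main test) at -0.00484, -0.00488 and -0.00484. With single libraries left out, PARS2 ran from -0.17 (DMSO 1 left out; -0.06 for Mi-2 2) to 0.23, CARS1 from -0.09 to 0.02 (Mi-2 2 left out; 0.01 for DMSO 3), and RARS2 from -0.05 (DMSO 3; -0.04 for Mi-2 1) to 0.13. EPRS1 ran from -0.03 (Mi-2 2 left out) to 0.08 and XPOT from -0.02 (Mi-2 2; -0.01 for DMSO 1) to 0.08.

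DESeq2 called 1 cytosolic gene lower, and 0 mitochondrial genes were called in any of the 3 TPM fits. Over all genes, 1221 were higher and 1541 lower with no filter on low counts, 229 and 381 on log2(TPM + 1), 249 and 398 on log2(TPM + 0.1), and 0 and 0 with no TPM filter, where 31463 genes were tested. The cause was not tested. With single libraries left out, 216 to 715 of all genes were higher and 302 to 866 lower, and 0 to 1 cytosolic and 0 to 1 mitochondrial genes were lower. Fewer libraries leave less power in those fits.

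Same-numbered libraries correlated in their deviations at 0.41, 0.06 and 0.26, and libraries of unlike number at -0.33 to 0.08. The same-numbered values were thus all positive, but not every library correlated best with its own number. The main test used no block because the labels state no pairing, and whether the numbers mark one is not given. With the library number as a replicate block, 1791 of all 16082 tested genes were higher and 2035 lower. Of the 19 cytosolic genes 1 was then higher (WARS1) and 4 lower (FARSA, FARSB, KARS1, NARS1). Of the 16 mitochondrial genes 4 were lower (LARS2, MARS2, SARS2, TARS2).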

Other observations

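Synthetases fall into class I and class II, which have unrelated catalytic folds. The 19 class I genes, which include MARS1, MARS2, IARS1 and WARS1, had a median log2 fold change of -0.13, with 16 negative and 1 called lower, MARS2. EPRS1, whose enzyme charges both glutamate and proline, was counted in class I only. The 16 class II genes, which include SARS1, SARS2, FARSA and FARSB, had a median of -0.21, with 13 negative. In edgeR without a block 0 of them were called, and 7 had an unadjusted p under 0.05, all lower. DESeq2 called FARSB among them. Over all tested genes 6.03% were called lower, 49.3% were negative and 14.1% were lower at an unadjusted p under 0.05. The difference between the classes was not tested.

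The plasma cell markers did not move one way. MZB1, an endoplasmic reticulum protein of antibody-secreting cells, rose by 0.70 on the log2 scale (edgeR adjusted p = 0.00576) and kept its call with each library left out. The transcription factor IRF4 rose by 0.35 (edgeR adjusted p = 0.0441), a call lost in 5 of the 6 fits with a library left out. The surface proteins SDC1 and CD38 fell by 0.69 and 0.86 (edgeR adjusted p 0.0180 and 0.0296). SDC1 lost its call without DMSO library 2 or Mi-2 library 2, and CD38 without DMSO library 2 or Mi-2 library 1 or 3 (adjusted p at most 0.105).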
